A study of Mus musculus with 68 samples.

Results

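The genes described here encode subunits of respiratory complexes I, II and III in mouse mammary tumours. They were taken by symbol: every gene symbol of the platform annotation that begins with Ndufa, Ndufb, Ndufc, Ndufs, Ndufv or Uqcr, plus Sdha, Sdhb, Sdhc and Sdhd, without the Ndufaf assembly factors. The rule used no measured value and found 48 genes of 18194 named genes, 36 of complex I, 4 of complex II and 8 of complex III. Each gene is represented by its probe set (a group of short probes for a transcript) with the highest mean. Of the 48 genes, 47 passed the filter on dim genes, a 95th percentile above 5.42, the median of all values, and 12555 genes in all did so. Ndufb4 did not pass, with a mean of 3.36 ± 0.15 (SD, n = 56) and a highest value of 3.74 on its only probe set assigned to it alone. A further 8 symbols, such as Ndufs6 and Ndufa11, occur only on probe sets assigned to several genes and were not used.

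Total RNA of spontaneous mammary tumours was hybridised to 68 Affymetrix arrays. All animals carried the MMTV-PyMT transgene, in which a mammary tumour virus promoter drives the polyoma middle T oncogene in mammary epithelium, and came from crossing NZB x PyMT hybrids back to FVB. The labels give no treatment, age or further group, so that the arrays form 1 group, and titles give an animal number with, on some arrays, the suffix R. The values below are from the 56 arrays, of 56 animals, whose 18S ribosomal RNA control probe sets had a mean below 8. The labelled tissue showed its epithelial markers throughout, with medians of 12.43 for Krt8, 12.39 for Krt18, 11.85 for Epcam and 12.13 for Elf5. In bulk tumour RNA, fewer cells of a type and less RNA per cell cannot be told apart.

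The 56 arrays divide into 3 sets that no label names, each found as a split that many probe sets on many chromosomes share exactly. None of the complex I to III genes entered this search. Array set 1 had 39 arrays, array set 3 had 9 arrays, 8 of them with the suffix R, and array set 4 had 8 arrays, all with animal numbers over 4000. Array set 2 is the 12 arrays left out. The mean over the 47 genes was 10.41 ± 0.09 (SD, n = 39) in array set 1, 10.16 ± 0.08 (SD, n = 9) in array set 3 and 10.45 ± 0.06 (SD, n = 8) in array set 4. Array set 3 spanned 9.98 to 10.25, and the other arrays 10.15 to 10.67. The difference between 3' and 5' control probe sets of Gapdh and Actb, a measure of RNA quality, was 0.61 ± 0.06 in array set 3, 0.39 ± 0.13 in array set 1 and 0.37 ± 0.08 in array set 4. Because these sets were found in the values, they are described without a test, and they enter each fit below as a block unless stated otherwise.

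Complex I takes electrons from NADH and complex II takes them from succinate, as a step of the citric acid cycle. Both pass them through ubiquinone to complex III, which hands them to cytochrome c, and complexes I and III pump protons that drive ATP synthesis. Apart from a few subunits encoded in mitochondrial DNA, which are not among these 48, the subunits are products of nuclear genes whose promoters often carry sites for nuclear respiratory factor 1 (NRF1), a regulator of mitochondrial genes. Tissues rich in mitochondria, such as brown fat and muscle, express most of these subunits at high levels.

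Promoters are shown for Sdha, Ndufs5 and Ndufa8, as those with the highest correlation with the other genes of the set (below) among the promoters holding the NRF1 letters (GCGCA, any base, GCGC). Each is the 250 bases before the start of the RefSeq transcript (GRCm38.p6), written in the direction of transcription, with the match in capitals on either strand. Sdha lies at chr13:74350241-74350490, Ndufs5 at chr4:123718187-123718436 and Ndufa8 at chr2:36049339-36049588, all on the minus strand.
Sdha: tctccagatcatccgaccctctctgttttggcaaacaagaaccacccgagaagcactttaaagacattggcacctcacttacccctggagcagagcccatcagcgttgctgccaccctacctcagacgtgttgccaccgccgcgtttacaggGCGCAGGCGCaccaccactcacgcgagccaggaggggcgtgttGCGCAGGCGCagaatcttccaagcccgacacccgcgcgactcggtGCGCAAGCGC
Ndufs5: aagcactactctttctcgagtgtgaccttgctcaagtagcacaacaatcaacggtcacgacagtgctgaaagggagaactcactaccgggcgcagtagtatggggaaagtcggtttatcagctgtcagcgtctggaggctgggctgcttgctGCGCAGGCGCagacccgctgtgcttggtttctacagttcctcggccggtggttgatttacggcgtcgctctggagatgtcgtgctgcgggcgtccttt
Ndufa8: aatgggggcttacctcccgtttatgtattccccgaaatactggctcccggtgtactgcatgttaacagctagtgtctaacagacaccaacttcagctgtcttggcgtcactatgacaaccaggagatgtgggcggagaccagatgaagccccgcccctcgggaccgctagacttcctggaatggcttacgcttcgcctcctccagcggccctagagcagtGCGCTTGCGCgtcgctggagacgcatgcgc
The promoter of Sdha holds 3 matches, and those of Ndufs5 and Ndufa8 hold 1 each. RefSeq promoters were matched for 40 of the 48 genes, 42 promoters in all, each read over 300 bases that end 50 bases past the start. On both strands, the NRF1 letters occurred in 9 of these 42 (21.4%) and in 4.6% of all 32851 promoters of the same length. The genes were Ndufa5, Ndufa6, Ndufa8, Ndufb4, Ndufs5, Sdha, Sdhd and Uqcrc1. The letters ATGGCGGC of YY1 occurred in 6 of 42 (14.3%, against 2.24% of all promoters), CCGGAAG of the ETS family in 8 (19% against 8.86%), AAGGTCA of the estrogen-related receptors in 4 (9.52% against 4.72%) and TATAAA in 5 (11.9% against 13.6%). The Ndufs5 promoter also holds the estrogen-related receptor letters, apart from its NRF1 match. The letters were picked after several spellings had been looked at, so these shares are descriptions, and the differences between them were not tested. A match of letters is a description of the sequence and not a measured site.

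The median SD between arrays was 0.18 for the 47 genes, 0.23 for all genes tested and 0.20 for the 2573 genes with a mean of at least 9.1. With array set means removed these medians were 0.15, 0.19 and 0.17. Probe sets differ in how strongly they bind, so the values are not compared between genes.

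Among the core subunits of complex I, Ndufv1 (which binds NADH) spanned 9.56 to 10.44 and its partner Ndufv2 10.56 to 11.58. The iron-sulfur subunit Ndufs1 had a lowest value of 8.89, a median of 9.48 and a highest value of 9.96. Ndufs3, a neighbour in the same arm, had 9.39, 9.76 and 10.45 in that order. Ndufs7 spanned 9.69 to 10.92 and Ndufs8 10.40 to 11.46, both being subunits that carry iron-sulfur clusters toward ubiquinone. The median SD was 0.20 for the 6 core genes and 0.18 for the 29 accessory genes. The 5 largest SDs were those of Ndufa4 (0.42), Ndufa4l2 (0.36), Ndufa10 (0.34), Uqcr11 (0.30) and Uqcrq (0.30). With array set means removed, the SD of Ndufa4 was 0.14, that of Uqcr11 0.16, that of Uqcrq 0.19 and that of Ndufa10 0.22, while that of Ndufa4l2 was 0.34. Ndufa4l2 had a lowest value of 5.47, a median of 6.18 and a highest value of 7.81, a 5.07-fold range, with the highest value in array set 4.

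In complex II, the flavoprotein Sdha, which oxidises succinate, had a lowest value of 10.21, a median of 10.52 and a highest value of 10.92. The iron-sulfur subunit Sdhb had 10.09, 10.49 and 11.04. The membrane anchors Sdhc (9.51, 10.21 and 10.64) and Sdhd (9.38, 10.17 and 10.56) reached lower in array set 3 than elsewhere, where Sdhd did not go below 9.87. In complex III, the Rieske iron-sulfur protein Uqcrfs1 spanned 10.53 to 11.26 and the core proteins Uqcrc1 and Uqcrc2 spanned 9.96 to 11.02 and 10.22 to 11.35. The small subunits Uqcrh (11.06 to 11.76) and Uqcrb (12.64 to 13.01) spanned less than Uqcrq (9.15 to 10.51), Uqcr10 (9.88 to 11.28) and Uqcr11 (9.66 to 10.80). Uqcrb had the narrowest range, 1.30-fold from the lowest to the highest array. Probe-set means ran from 5.96 for Ndufs5 to 12.82 for Uqcrb, and their order is not read as one of transcript levels. The means were 6.20 for Ndufa4l2, 6.69 for Ndufb1, 9.14 for Ndufs4 and 9.47 for Ndufs1, and 11.71 for Ndufb11, 11.71 for Ndufc2, 11.64 for Ndufa13 and 11.48 for Uqcrh.

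The genes varied together across tumours. With array set means removed, the median Pearson correlation over the 1081 pairs of the 47 genes was 0.339, against 0.0107 over all pairs of genes tested, and 9.53% of the pairs were below 0, against 48.3%. These correlations share libraries, and are descriptions over 56 arrays. Pairs within complex II had a median of 0.555, pairs of complex II with complex III 0.467, pairs within complex I 0.339 and pairs within complex III 0.313. The highest pair was Ndufv1 with Uqcrc1 (0.846), followed by Ndufb5 with Sdha (0.814). Pairs of complex I with complex II (0.336) and with complex III (0.322) had medians close to those of pairs within complex I.

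The genes closest to the mean of the rest of the set were Ndufb5 (r = 0.832, rho = 0.749) and Ndufs3 (r = 0.823, rho = 0.758). Sdha (0.786), Ndufa9 (0.784) and Sdhb (0.782) followed by r, with Sdhd at 0.650 and Sdhc at 0.441. Without the 2 arrays farthest from the median of that mean, r was 0.777 for Ndufb5, 0.754 for Ndufs3 and 0.692 for Sdha. The lowest correlations were those of Ndufa4l2 (r = -0.151, rho = -0.200), Ndufa10 (0.148), Uqcrc2 (0.348), Ndufa7 (0.357) and Uqcrb (0.374). Ndufa4l2 was the only gene of the 47 with a negative value. Its relative Ndufa4, named for complex I and later assigned to complex IV, had r = 0.428. The lowest pairs were Ndufa13 with Ndufa4l2 (-0.56) and Ndufa10 with Ndufa7 (-0.516). Leaving Ndufa4l2 out moved the median over pairs from 0.339 to 0.352.

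**Figure D1:**
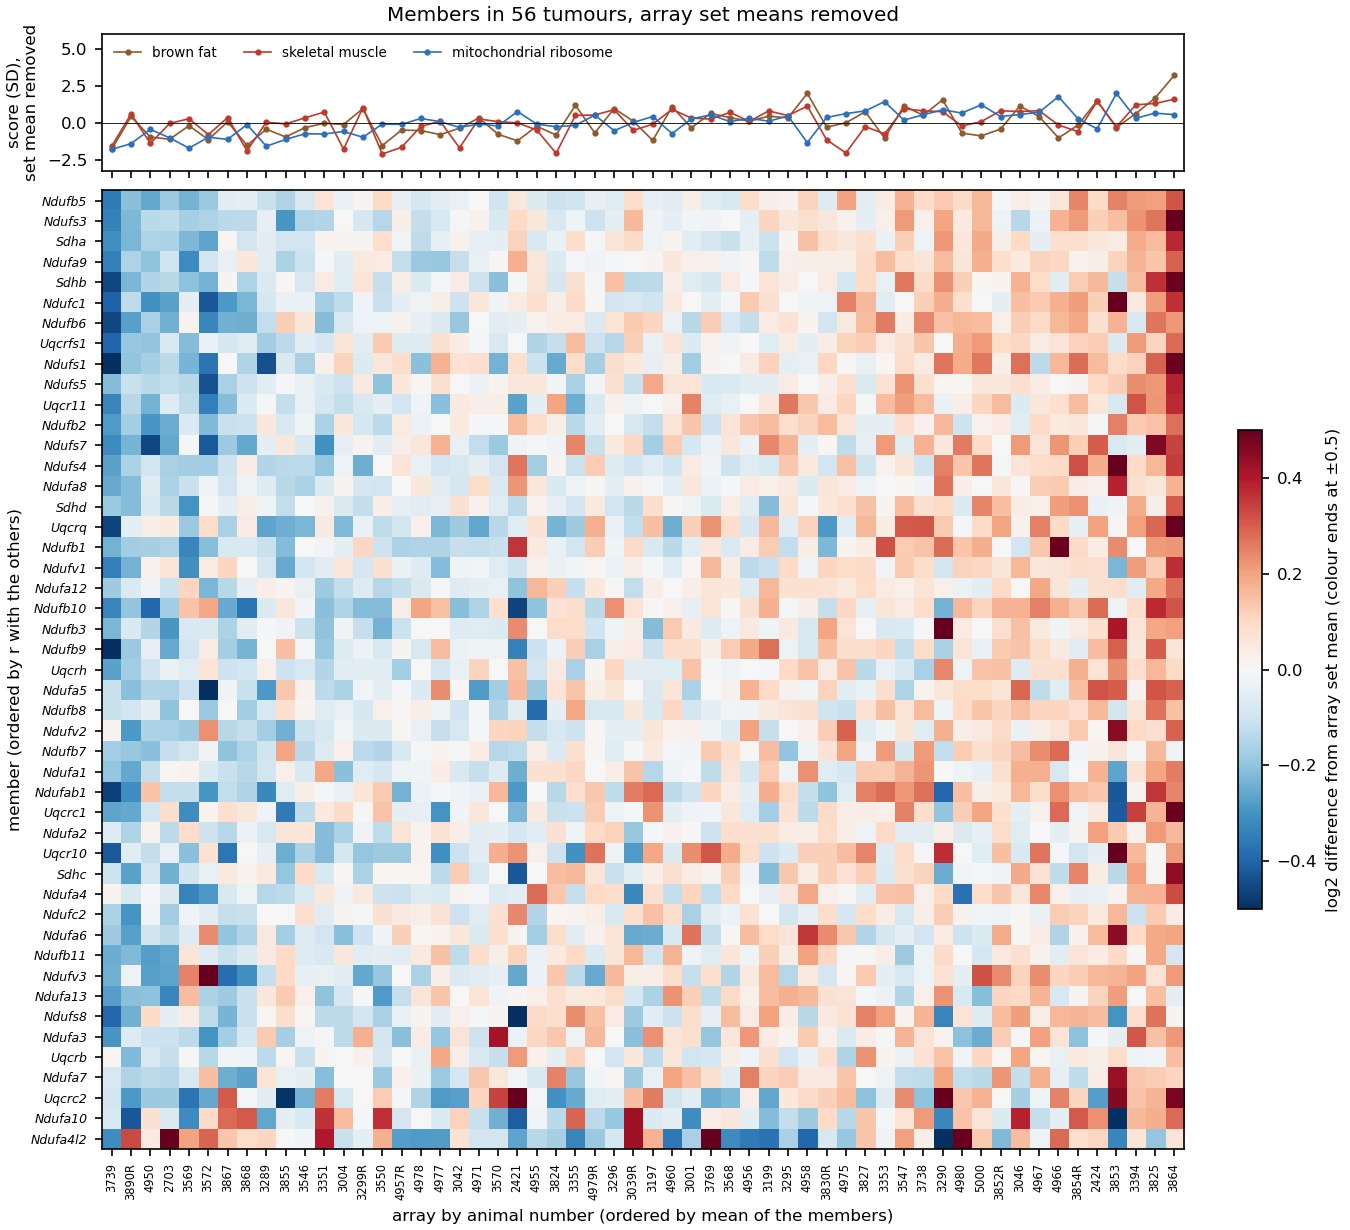
Each row of the heat map is 1 of the 47 genes, each column 1 of the 56 arrays, and colour is the log2 difference from the mean of the array's set; the upper panel gives 3 scores of the same arrays in SD. Most rows go from blue on the left, where animal 3739 stands, to red on the right, where animal 3864 stands, while the bottom rows, Ndufa4l2 and Ndufa10, do not follow.

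The arrays at both ends also lay at the end of the range for some markers of other tissue. Animal 3864 had the highest mean over the 47 genes (10.67), with 45 genes above their median, and animal 3739 had the lowest mean of array set 1 (10.15), with 2 genes above their median. Animal 3864 also had the highest value of the 56 arrays for the brown fat genes Ucp1 (10.96) and Cidea (9.96), the muscle genes Acta1 (13.45) and Myh4 (12.54), and the adipocyte gene Adipoq (11.61). Animal 3739 had the lowest value for Adipoq (4.45), and for Cox7a1 (5.44) and Cox8b (4.79), subunits of complex IV typical of muscle and brown fat. Its values of Cidea (5.66), Myh4 (3.44), Acta1 (7.50) and Ucp1 (4.74) were not the lowest, with 4, 6, 8 and 14 arrays below. The epithelial gene Krt8 was 12.37 in animal 3864 and 12.58 in animal 3739. Without both arrays the median correlation over pairs was 0.274. The part of other tissue in the tumour pieces in this pattern was not tested.

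Among other mitochondrial lists, genes of the citric acid cycle were closest to the mean of the 47 genes. Their median r with it was 0.658, and 12 of 15 were above 0.5, led by Idh3b (0.819), Fh1 (0.799), Suclg1 (0.793) and Dld (0.769). ATP synthase had a median of 0.58 (12 of 16 above 0.5), led by Atp5e (0.799), and complex IV had 0.527 (9 of 15), led by Cox4i1 (0.718). Subunits of the mitochondrial ribosome had a median of 0.449 (30 of 76), and the assembly factors of complexes I to III 0.375 (7 of 23). Regulators of mitochondrial genes had a median of 0.166 (1 of 15), the gene above 0.5 being Esrra (0.546), an estrogen-related receptor. The median over all genes tested was 0.0658.

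Outside all lists, the 10 genes most like the mean of the 47 by r over the 56 arrays were Dnajc15 (0.854), Cisd1 (0.788), Chchd10 (0.787), Auh (0.785), Etfb (0.782), Hibch (0.773), Etfdh (0.772), Gyg (0.756), Gnpat (0.741) and Etfa (0.731). Etfa, Etfb and Etfdh encode the electron transfer flavoprotein and its dehydrogenase, which feed electrons from fatty acid oxidation into ubiquinone. Dnajc15 kept r = 0.792 without the 2 arrays farthest from the median.

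Because the labels give 1 group, tests asked which genes followed a score of genes outside the set. A score is the mean of the standardised values of a list, each fit was made with limma over all genes, and the slope is the log2 difference per SD of the score. The p-values measure the spread between 56 tumours with 1 array each, and a gene is called where the Benjamini-Hochberg adjusted p is under 0.05. The complex I to III genes followed the score of the 76 genes of the mitochondrial ribosome, which translates the subunits encoded in mitochondrial DNA. Of the 47 genes, 31 were higher with a higher score and 0 were lower, where 20.7% of all genes tested were called higher and 5.53% lower. The median slope was 0.075 for the 47 genes and 0.0129 for all genes.

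Ndufa8, an accessory subunit of complex I, had a lowest value of 9.99, a median of 10.40 and a highest value of 10.81. Its slope was 0.0995 ± 0.0130 (SE; limma adjusted p = 3.96e-08). Its highest array, from animal 3853, also had the highest score (2.09 SD), while the array of animal 5000, next by score (2.03), lay near the median, and its values overlapped between array sets. The steepest slopes were those of Ndufb1 (0.139), Uqcr10 (0.136), Ndufc1 (0.134), Ndufs4 (0.133) and Uqcrc2 (0.131). Ndufs4 had a slope of -0.0342 on its probe set with the largest SD, which had a mean of 5.55, and Uqcrc2 did not pass without the array set block. Over all array sets, with 1 array per animal, these 5 slopes were 0.295, 0.31, 0.309, 0.318 and 0.304 in the same order, per SD of the score over those arrays and so in another unit. In complex II, Sdhd (0.0806), Sdha (0.0757) and Sdhb (0.0686) were called higher, and Sdhc was not. Of the assembly factors 15 of 23 were higher, among them Ndufaf2 (0.179) and Bcs1l (0.146), and of the citric acid cycle 12 of 15. Among regulators 4 of 15 were higher, including the mitochondrial transcription factors Tfb1m (0.182) and Tfam (0.0997). With the mitosis score as a covariate, 34 of the 47 genes were higher and 0 lower. This count is given without the share of all genes, so it is not read as particular to the set.

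The score of 17 mitosis genes, such as Cdk1 and Aurka, called fewer of the set. It called 11 of the 47 genes higher and 0 lower, with 19.5% of all genes called higher and 13% lower, so that the share of the set called higher was near that of all genes. Ndufs1 had the steepest slope, 0.102 ± 0.0226 (SE; limma adjusted p = 0.000314). It was followed by Ndufab1 (0.0861), the mitochondrial acyl carrier protein, Ndufa10 (0.0811), Ndufb1 (0.0692) and Ndufs4 (0.0688). Among regulators 9 of 15 were higher, including Myc (0.187), Tfb1m (0.140) and Pprc1 (0.104). The mitosis and mitochondrial ribosome scores had r = 0.663 (rho = 0.607) with array set means removed. With the mitochondrial ribosome score as a covariate, 2 of the 47 genes were called higher and 13 lower on mitosis, with 27.2% of all genes called. In that fit Ndufb1 (-0.0143) and Ndufs4 (-0.00835) had slopes below 0, Ndufs1 (0.0536) and Ndufab1 (0.0625) did not pass, and Ndufa10 (0.138) kept its call. Within array set 1 alone 5 genes were called higher, where 17% of all genes were called, against 32.5% over the 56 arrays. Ndufa10 did not pass there, without the block, with the 3' minus 5' difference as a covariate or without the 2 arrays of most distant score, and Ndufs4 did not pass in array set 1.

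**Figure D2:**
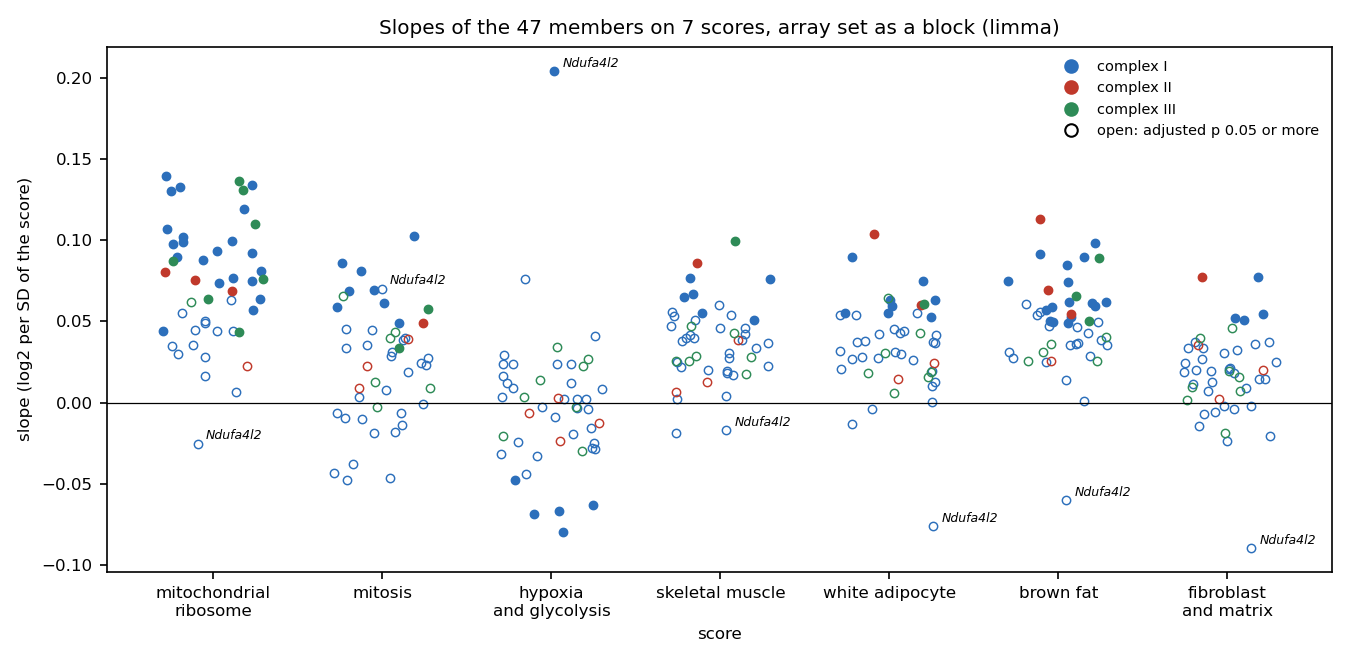
Each point is the slope of 1 of the 47 genes on a score, in log2 per SD, coloured by complex, and filled points passed an adjusted p of 0.05. The mitochondrial ribosome score has 31 filled points and brown fat 22, all above 0, while Ndufa4l2 stands apart at 0.204 on the hypoxia and glycolysis score.

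The score of 18 hypoxia and glycolysis genes set Ndufa4l2 apart from the rest. Ndufa4l2 is known as a gene induced by hypoxia. Its slope on this score was 0.204 ± 0.0392 (SE; limma adjusted p = 0.000165), and the array with the highest score, in array set 4, held its highest value, 7.81. It was the only gene of the set called higher, where 10.1% of all genes were, and it kept its call in array set 1 alone (slope 0.152) and without the 2 arrays of most distant score (0.182). In the opposite direction 5 genes were lower, where 11.5% of all genes were. They were Ndufa3 (-0.0797), Ndufa4 (-0.0683), Ndufa13 (-0.0664), Ndufa7 (-0.0627) and Ndufb2 (-0.0474), so that the share called lower was near that of all genes, and the median slope of the set was -0.00243. In array set 1 alone none of these 5 passed, where 4.21% of all genes were called, against 21.7% over the 56 arrays. Their slopes there were -0.0468, -0.055, -0.0664, -0.039 and -0.0515 in the same order, and without the array set block 1 gene was lower. In complex IV, the isoform Cox4i2, known to rise in low oxygen, had a slope of 0.0582 and Cox8b one of -0.485. The hypoxia score had r = -0.479 with the white adipocyte score and -0.607 with the fibroblast and matrix score, and the part of these tissues in the slopes was not tested.

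Scores of other tissue went with higher levels of part of the set. The skeletal muscle score (12 genes) called 8 of the 47 genes higher and 0 lower, with 6.72% of all genes higher and 4.9% lower. The white adipocyte score (8 genes) called 11 higher and 0 lower, with 11.3% and 7.28% of all genes. The fibroblast and matrix score (11 genes) called 5 higher and 0 lower, with 12.9% and 9.81% of all genes, so that its share of calls was near that of all genes. A brown fat score of 6 genes called 22 higher and 0 lower, with 9.67% and 4.57% of all genes. This fit was added after seeing the data, with the values of several of its genes in animals 3864 and 3739 known. Its count and p-values are descriptions. Among the genes of the brown fat score are Cox7a1 and Cox8b of complex IV, and Ppargc1a, which is also on the list of regulators. Without Cox7a1 and Cox8b the score called 11 higher and 0 lower, with 10.6% of all genes called, against 14.2% with them. Ppargc1a stayed in the score there. The median slope of the 47 genes was 0.0383 on muscle, 0.0375 on white adipocyte, 0.0194 on fibroblast and 0.0499 on brown fat. With array set means removed, the median pairwise correlation within these lists was 0.971, 0.891, 0.733 and 0.413 in the same order.

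Sdhb had the steepest slope of the set on the brown fat, white adipocyte and fibroblast scores. Its slope was 0.113 ± 0.0153 on brown fat (SE; limma adjusted p = 6.06e-08), 0.104 on white adipocyte (limma adjusted p = 2.90e-06), 0.0857 on muscle and 0.0776 on fibroblast. The brown fat fit was added after seeing the data, so its p is a description. The highest value of Sdhb, 11.04, was in animal 3864 and the lowest, 10.09, in animal 3739. On brown fat the core subunits Ndufs1 (0.0981), Ndufs7 (0.0916) and Ndufs3 (0.0899) and the complex III subunit Uqcrq (0.0892) came next. On white adipocyte the next were Ndufs1 (0.0898), Ndufs7 (0.0746), Ndufs5 (0.0635) and Ndufs3 (0.0629). On muscle Uqcrq was steepest (0.0992), and Ndufb10 (0.0767), Ndufs7 (0.0760) and Ndufa3 (0.0669) were also called. On fibroblast the others called were Ndufa3 (0.0774), Ndufa13 (0.0544), Ndufa4 (0.0522) and Ndufa1 (0.0509).

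These slopes were small beside those of the complex IV isoforms of muscle and brown fat. Per SD of the muscle score Cox8b changed by 0.974, Cox6a2 by 0.822 and Cox7a1 by 0.523, and Cox8b changed by 1.16 per SD of the adipocyte score. The brown fat marker Ucp1 had a lowest value of 4.15, a median of 5.67 and a highest value of 10.96, Cidea 5.51, 6.89 and 9.96, and Acta1 4.66, 11.31 and 13.45. Of the citric acid cycle 13 of 15 genes were higher with the brown fat score, led by Sucla2 (0.130), and of the mitochondrial ribosome 1 of 76. The scores moved together, with r = 0.772 between brown fat and white adipocyte, 0.681 between brown fat and muscle and 0.578 between muscle and white adipocyte.

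In joint fits fewer genes were called, in the set and over all genes. The muscle score called 0 of the 47 genes with either the white adipocyte or the brown fat score as a covariate, where 1.2% and 0.861% of all genes were called, against 11.6% without a covariate. With the white adipocyte score the muscle slopes were 0.0932 for Uqcrq and 0.0769 for Ndufb10, beside 0.0992 and 0.0767 without it. The white adipocyte score called 1 with the muscle score (8.02% of all genes) and 0 with the brown fat score (3.55%), against 18.5% without a covariate, and Ndufs3 had a slope of -0.019 in the latter. The fibroblast score called 0 with the white adipocyte score (5.92%, against 22.7%). The brown fat score called 5 with the muscle score (4.14%), and 5 without the 2 arrays farthest from its median (10%), against 14.2%. Sdhb kept its call in both of these fits, with slopes of 0.104 and 0.0945.

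**Figure D3:**
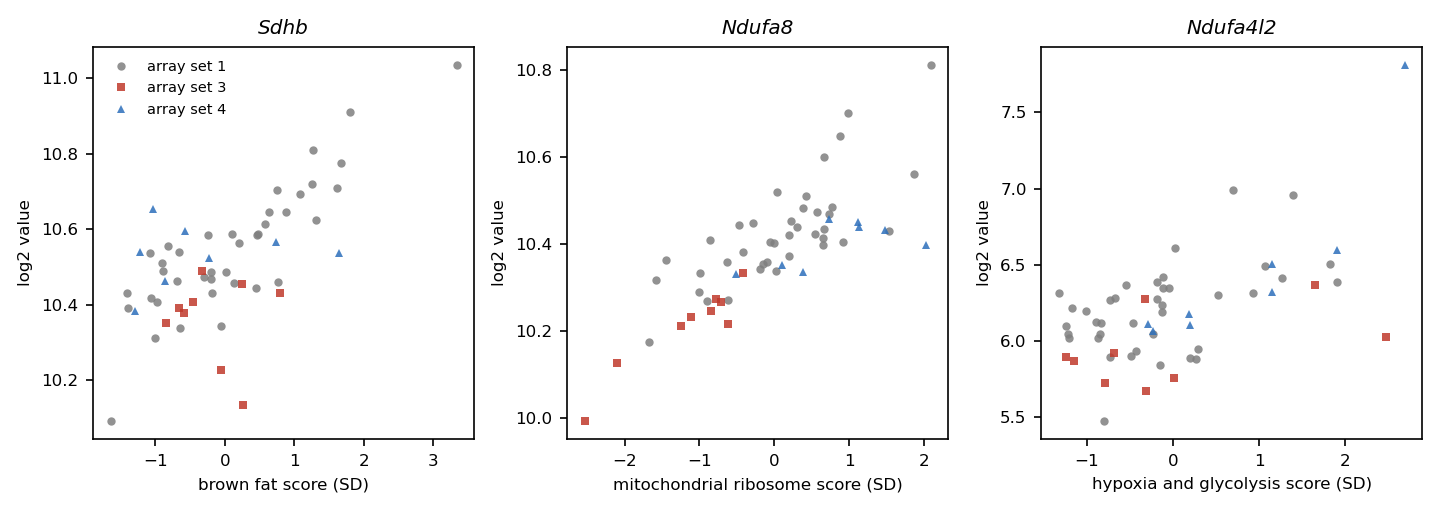
The panels plot the log2 value of Sdhb against the brown fat score, of Ndufa8 against the mitochondrial ribosome score and of Ndufa4l2 against the hypoxia and glycolysis score (in SD), for 56 arrays marked by array set. Sdhb reaches 11.04 and Ndufa8 10.81 at a high score, and the highest Ndufa4l2 value, 7.81, belongs to an array of array set 4.

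The set was lower in arrays with the suffix R than in the others. No label explains it. The mean over the 47 genes was 10.15 ± 0.08 (SD, n = 8) with R and 10.41 ± 0.09 (SD, n = 48) without it. In a fit of R without a block, 31 of the 47 genes were lower and 0 higher, with 19.8% of all genes lower and 13.1% higher (limma, Benjamini-Hochberg adjusted p under 0.05). The median difference was -0.232 for the 47 genes and -0.0313 for all genes. ATP synthase had 11 of 16 genes lower and the mitochondrial ribosome 42 of 76, while the citric acid cycle had 3 of 15.

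Ndufa4 differed most. With R its lowest value was 9.59, its median 9.90 and its highest 10.05, and without R these were 10.15, 10.98 and 11.32, so that the ranges did not overlap. The difference was -1.08 ± 0.0683 (SE; limma adjusted p = 1.94e-18). Ndufa3 (-0.675), Uqcr11 (-0.663), Ndufa10 (-0.656) and Sdhd (-0.592) followed. For 4 of the 47 genes (8.51%), Ndufa1, Ndufa12, Ndufa3 and Ndufa4, every R array lay below every other array, as it did for 21 of the 12555 genes tested (0.167%). Ndufs1, Uqcrb and Ndufa5 were among the 16 genes that did not pass, and Ndufs1 spanned 9.30 to 9.78 with R and 8.89 to 9.96 without it. Uqcrc2, which did not pass either, was higher with R, by 0.21 on its main probe set and by 0.15 on another.

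All R arrays of the 56 lie in array set 3, so the suffix and the array set cannot be told apart. The array of array set 3 without R, from animal 4967, had 10.15 for Ndufa4, below all arrays of the other sets, which began at 10.56. With the array set as a block, the fit of R sets 8 arrays against that 1 array. It called 0 of the 47 genes and 0 of all genes by limma, with a difference of -0.272 for Ndufa4 and 0.134 for Ndufa10, and a single array says little of either. The 3' minus 5' difference of the control probe sets was 0.60 ± 0.07 with R and 0.39 ± 0.13 without it. With this difference as a covariate 27 genes were lower, a count without the share of all genes beside it. The part of RNA quality in the lower values with R was not tested. Over all array sets, with 1 array per animal and no block, 8 genes were lower, with 14.5% of all genes called. That fit left out the R array of each animal with 2 arrays. Its R arrays were thus the same 8, and array set 2 added only arrays without R. For 2 animals there is an array with R and an array without it, the R array in array set 2 and outside the 56, the other in array set 1. In animal 3296 the mean over the 47 genes was 9.44 with R and 10.41 without, and Ndufa4 was 10.47 and 11.08. In animal 3351 the means were 9.65 and 10.36, and Ndufa4 was 10.48 and 11.05. With R, 46 and 45 of the 47 genes were lower in these animals. The same count was not made over all genes, so it is not read as particular to the set. The R arrays of these animals also had higher 18S controls (9.51 and 8.97, against 5.96 and 6.0). Their 3' minus 5' differences were 0.56 and 1.04, against 0.37 and 0.23 without R. Within these pairs of arrays the suffix and the array set cannot be told apart either. Array set 2 also holds arrays without R, and R was not compared within it.

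Other probe sets of the same genes went the same way in part. Of 30 other probe sets with a mean above 9, 25 had a lower mean with R, with a median difference of -0.26. For Ndufa12, where the main probe set differed by -0.52, other probe sets differed by -0.19, -0.11 and 0.58. For Ndufab1, the main probe set differed by -0.57 and another, with a mean of 7.06, by 1.27. All 6 probe sets of Ndufs8 were lower with R, by -0.24 to -0.76. Sdha differed by -0.09 on its main probe set and by 0.15 on another.

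**Figure D4:**
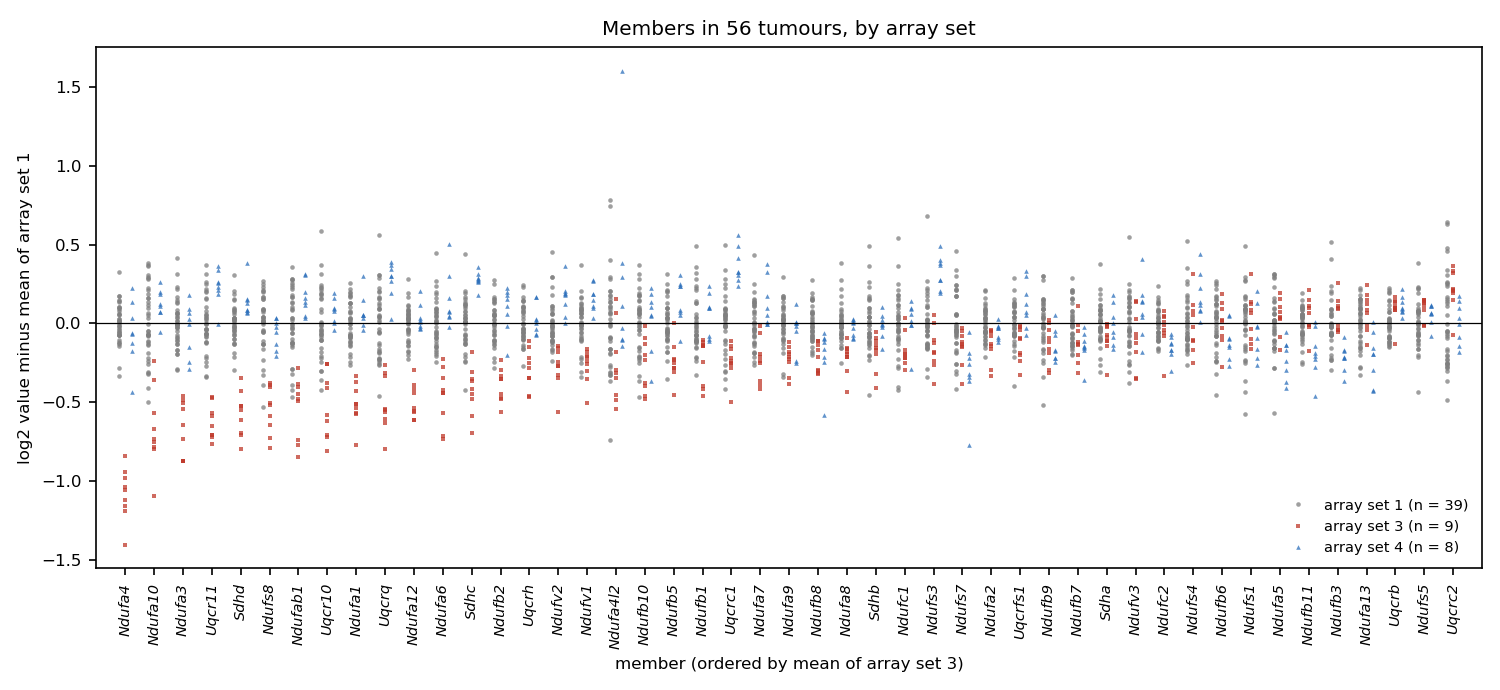
Each column of points is 1 of the 47 genes, in log2 relative to the mean of array set 1, with array sets marked by colour and shape. Array set 3 lies lowest for Ndufa4 and near 0 for genes toward the right, such as Uqcrb. Its mean lies above that of array set 1 for Uqcrc2 (10.92 against 10.71) and below it for 39 of the 47 genes. The latter count was not made over all genes.

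**Figure D5:**
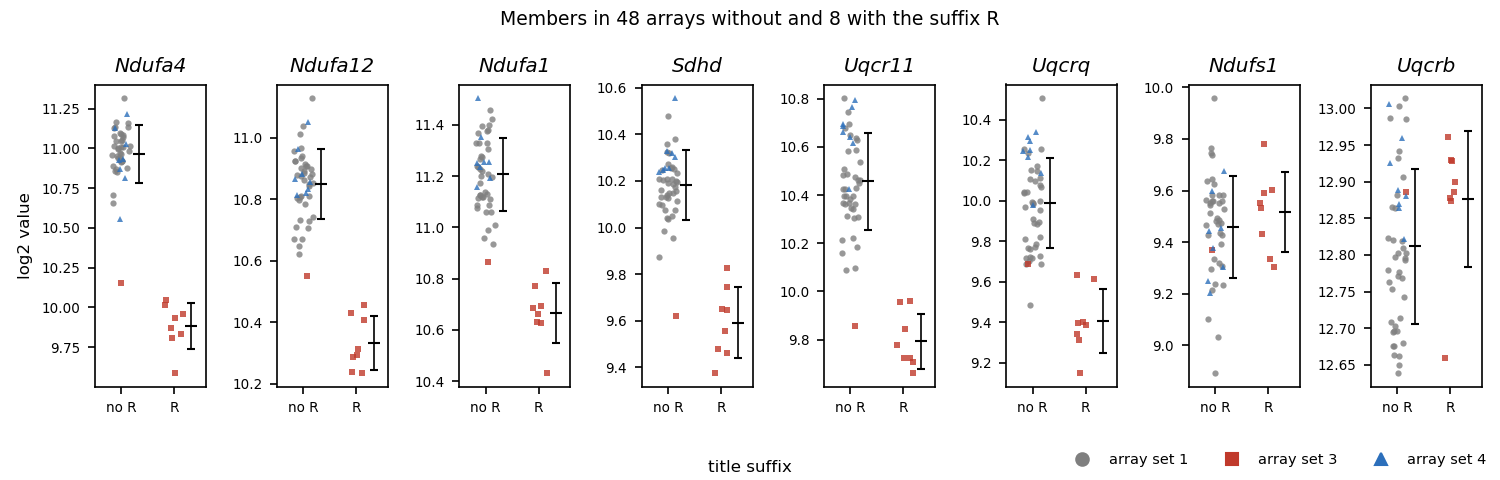
The panels plot the log2 value of 8 genes in 48 arrays without and 8 arrays with the suffix R, with the mean and SD as a bar beside the points. Ndufa4, Ndufa12 and Ndufa1 do not overlap, whereas Ndufs1 and Uqcrb do; the red square without R is animal 4967.

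The animal number range, numbers over 4000 against those under, called 0 of the 47 genes with the array set as a block. By limma it called 0 of all 12555 genes, with 1 of the 47 and 872 of all genes at an unadjusted p under 0.05. Without the block 5 of the 47 genes were called, 2 higher and 3 lower, a count without the share of all genes beside it. All arrays of array set 4 have numbers over 4000.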

How the data were processed

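The deposited table holds values of 45101 probe sets on 68 arrays, with 0 missing. The values were made with RMA, per the submitters' processing notes. Version, settings and log base are not given in the sources used here. From their range, 1.68 to 14.57, the deposited values are read as log2. Array medians lay between 5.33 and 5.46, and the number of arrays limits the precision. Raw intensities were not used here.

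Of the probe sets, 34958 carry 1 gene symbol in the platform annotation, 932 several, and 9211 are not listed. Fits used limma 3.58.1 (lmFit and eBayes) in R 4.3.3 over all genes tested, leaving out the scored list, and were tested on simulated data. Correlations used SciPy 1.17.1 and pandas 2.3.3. An array set is a split that 20 or more probe sets, on 10 or more chromosomes, share exactly. Promoters are RefSeq sequences (GRCm38.p6), and the motif letters were picked after several spellings had been looked at.

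The genes, lists, scores, tests and array sets were chosen with earlier results of these data known. Named genes are those with the 5 highest and lowest means, the 5 largest SDs, the 5 highest and lowest correlations, the 5 steepest called slopes each way in each fit, the Sdh genes, Ndufa4 and Ndufa4l2. They also include up to 4 genes of other lists and the 10 most like genes. Other names were chosen after their values were seen. Alternatives were the block, the arrays used, the probe set, the filter, the scaling, RNA quality and covariate scores.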

Additional observations from a re-analysis of the deposited data

How the results depend on the processing

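No paired analysis was possible because the labels form 1 group and no animal has 2 of the 56 arrays. The count of genes of the set called on the mitochondrial ribosome score ran from 24 to 35 over 10 alternatives, and the median pairwise correlation from 0.274 to 0.398. The share of all genes called moved as well, being 26.3% in the main fit, 29.8% without the block and 17.7% without the filter. The counts that follow are given without such shares, and are not read as changes of the set alone. In array set 1 alone, the counts called were 5 on mitosis, 1 on hypoxia (Ndufa4l2, higher; the 5 lower genes kept slopes below 0) and 3 on fibroblast. Without the array set block they were 2 on hypoxia, 4 on muscle, 3 on fibroblast, 14 on brown fat and 5 on the number range. Over all array sets they were 2 on fibroblast and 8 on the suffix R, and with the block, 8 arrays against 1, 0 on the suffix R, where Ndufa10 had 0.134. Fits with a covariate were chosen after seeing the data, as were all fits on brown fat. With the mitochondrial ribosome score as a covariate, mitosis called 15 (2 higher, 13 lower), with -0.0143 for Ndufb1 and -0.00835 for Ndufs4. With the white adipocyte score, muscle and fibroblast called 0 each. With the brown fat score, muscle and white adipocyte called 0 each, and Ndufs3 turned to -0.019 on the latter. With the muscle score, white adipocyte called 1 and brown fat 5. Without the 2 farthest arrays brown fat called 5, and without Cox7a1 and Cox8b 11. With the probe set of largest SD, Ndufs4 turned to -0.0342 on the mitochondrial ribosome and -0.0628 on mitosis. The cause was not tested in any of these. Array centring moved the mitosis calls from 11 higher and 0 lower to 8 higher and 3 lower. Limits are 1 tissue piece per animal, 1 group without controls, array sets of unknown origin, and values whose normalisation could not be repeated here.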
